A study of Homo sapiens with 6 samples.

Results

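The OAS genes encode sensors of double-stranded RNA and form a family of 4 genes in these data: OAS1, OAS2, OAS3 and OASL. They were taken by gene name from a table of 58735 genes, and all 4 had a row there. All 4 also passed the filter on low counts that left 15294 genes for testing. RNA was measured by sequencing of polyadenylated transcripts in KYSE410, an established line of oesophageal squamous cell carcinoma cells. The control group held 3 samples with wild-type genotype, titled NC, and the other group held 3 samples with ADAR1 knockdown, titled siADAR1. ADAR1 is the enzyme that edits adenosine to inosine in double-stranded RNA. Both groups were grown in the same medium, and no sample carries a further treatment. No label says whether the controls received a control siRNA, so any effect of delivering an siRNA and the loss of ADAR1 cannot be told apart. No label says that the samples of a group were separate cultures, so the p-values may reflect technical spread alone.

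OAS1, OAS2 and OAS3 are enzymes. When they bind double-stranded RNA they join ATP into short 2′-5′-linked oligoadenylates, called 2-5A, which switch on a latent ribonuclease that cuts single-stranded RNA and slows translation. OASL keeps the family fold but does not make 2-5A, and it carries ubiquitin-like repeats at its C terminus that take part in signalling by the RNA sensor RIG-I. All 4 genes are classical interferon-stimulated genes. ADAR1 is known for keeping a cell's own double-stranded RNA from setting off these sensors, which is why the family is of interest after its knockdown.

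The 4 genes lie on chromosome 12 (GRCh38). OAS1 (ENSG00000089127, 112906777 to 112933222), OAS3 (ENSG00000111331, 112938352 to 112973249) and OAS2 (ENSG00000111335, 112978395 to 113011723) follow one another on the plus strand, 5129 and 5145 bases apart. OASL (ENSG00000135114, 121019111 to 121039242) lies on the minus strand, 8007387 bases beyond OAS2. The antisense gene AC004551.1 spans OAS1, OAS3 and OAS2 on the other strand. It had 0 counts in each of the 6 libraries, and a count of 0 allows up to 3 counts. The strand was not marked in the described library protocol, so reads of AC004551.1 and of the genes opposite it cannot be told apart.

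RefSeq promoter windows (GRCh38.p14, 250 bases before to 50 after the start) were at hand for OAS1 and OAS3, that is, for 2 of the 4 genes. They were searched on both strands for 3 short motifs of interferon control. The core of the interferon-stimulated response element (ISRE) was taken as GAAA, any 2 bases and GAAA again. AANNGAAA is a shorter site of interferon regulatory factors that every ISRE core contains, and TTCNNNGAA is the gamma-activated site. The stretches of 30 bases around the first and second of these motifs are shown for these 2 genes, with the motifs in capitals. A link between the motifs and the RNA levels was not tested.
OAS1 chr12:112906899-112906928, plus strand: tctgatttgcaAAAGGAAAgtgcaaagaca
OAS1 chr12:112906935-112906964, plus strand: cccttctgaggAAACGAAAccaacagcagt
OAS3 chr12:112938319-112938348, plus strand: ctagaaagAAACGAAACTGAAAgcagggaa
OAS3 chr12:112938452-112938481, plus strand: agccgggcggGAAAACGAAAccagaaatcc
OAS3 held the ISRE core at 2 places, as GAAACTGAAA and as GAAAACGAAA, where 3.57% of 35116 promoter windows of the same length held it at all. OAS1 held none with 2 bases between, and held the shorter AANNGAAA at 2 places, the second of them 16 bases before the RefSeq start. That second place reads GAAACGAAA with the base before it, as does part of the first OAS3 stretch. There GAAA recurs at a closer spacing that was not searched for, so OAS1 is not shown to lack an ISRE. AANNGAAA was present in 22.8% of all windows. OAS1 also held TTCNNNGAA once, as TTCAGAGAA, which reads as TTCTCTGAA on the other strand, against 7.66% of windows. In GENCODE release 29, which places starts further upstream, both OAS1 stretches and the second OAS3 stretch lie in non-coding exon sequence, and the first OAS3 stretch lies outside any OAS3 exon. A match is a description of the letters and does not show that a factor binds there.

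Total counts per library ran from 15497788 to 17329443 in control and from 15175619 to 16903792 in siADAR1. ADAR itself, the targeted gene, went from 443.6 ± 12.1 to 88.7 ± 9.72 CPM (counts scaled to a common library size; SD, n = 3 each). The libraries numbered 1 stood apart from their group: the chi-square per degree of freedom between replicates was 14.1 to 18.0 for pairs that included them and 3.95 to 5.02 for the pairs of replicates 2 and 3. Of 12 markers of squamous epithelium, KRT14 was near 0 and the other 11 averaged 1 CPM or more. The summed level of the squamous markers was 1970 to 2080 CPM in control and 1860 to 1990 in siADAR1. Single markers moved in opposite directions under this sum. The mean of KRT6A went from 26.3 to 5.61 CPM, and that of DSG3 from 22.5 to 65.2 CPM. Of 6 leukocyte markers, CD3E and LYZ were among those with 0 counts in every library, and the 6 together came to 0.46 to 0.81 CPM in control and 0.26 to 0.45 in siADAR1. Of 4 endothelial markers KDR was at 0, and the sums were 1.05 to 2.15 CPM in control and 0.677 to 1.33 in siADAR1. Fibroblast markers summed to 40.1 to 59.4 CPM in control and 72.3 to 85.0 in siADAR1, nearly all from COL1A1 and LUM, with DCN at 0. The part of this difference in the OAS values was not tested.

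With ADAR1 knocked down, OAS1 and OAS3 were lower, OAS2 did not pass the test with few reads, and OASL was higher on average without passing. At an edgeR quasi-likelihood adjusted p below 0.05, 2 of the 4 genes fell, 0 rose and 2 missed the threshold. The 4 log2 fold changes had a median of -0.61. Over all tested genes 51.0% passed in either direction, 26.0% higher and 25.0% lower, with a median of 0.0047, so 2 of 4 is near the general share. With libraries scaled by their totals alone the median of all tested genes moved up by 0.12, and 62.9% of the genes that passed were higher, against 50.9% here. The directions of the 4 OAS genes were the same under that scaling. In bulk RNA, fewer cells with a transcript and less transcript per cell cannot be told apart.

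**Figure D1:**
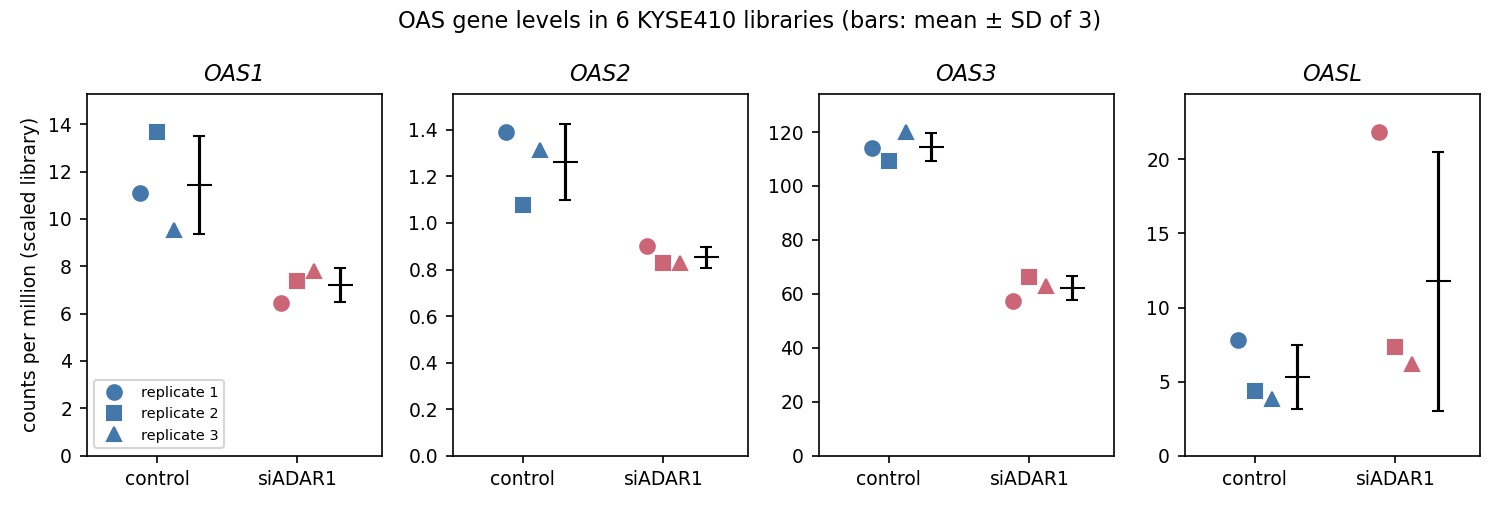
Level of each OAS gene in CPM on scaled library sizes, in the 3 control and 3 siADAR1 libraries; points are libraries, shaped by replicate number, and bars are mean ± SD. OAS3 fell from 114 to 62.2 CPM with no overlap between groups, while OASL in siADAR1 replicate 1 (21.8 CPM) lay far above every other library.

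OAS3, the largest synthetase and the one with 3 repeats of the family unit, fell in every siADAR1 library. Its level was 114.1, 109.4 and 119.9 CPM in control replicates 1 to 3, from 1888, 1625 and 1825 counts, and 57.5, 66.1 and 63.0 CPM in siADAR1, from 1020, 1038 and 991 counts. All siADAR1 libraries lay well under the lowest control. The mean went from 114.4 ± 5.28 to 62.2 ± 4.33 CPM (SD, n = 3 each), which left 54.4% of the control level. On the log2 scale OAS3 fell by 0.88 ± 0.09 (SE; edgeR adjusted p = 6.80e-06). Groups that do not overlap were common: 60.3% of all tested genes had them, 29.7% lower and 30.7% higher in siADAR1.

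OAS1, the smallest synthetase, with a single family unit, fell too. It had 11.1, 13.7 and 9.53 CPM in control, from 184, 203 and 145 counts, and 6.43, 7.38 and 7.82 CPM in siADAR1, from 114, 116 and 123 counts. The groups did not overlap, but control replicate 3 lay closer to the highest siADAR1 library than to control replicate 2. OAS1 fell by 0.67 ± 0.18 on the log2 scale (SE; edgeR adjusted p = 0.00786), and the mean in siADAR1 was 63.0% of control.

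OAS2, the member with a pair of family units, was close to the limit of detection. It had 23, 16 and 20 counts in control and 16, 13 and 13 in siADAR1, or 1.39, 1.08 and 1.31 CPM against 0.902, 0.828 and 0.826 CPM. Each siADAR1 library lay below each control library. The log2 fold change of -0.56 ± 0.38 (SE) did not pass (edgeR adjusted p = 0.237), and at this depth a change of the size seen in OAS1 could not be told from none.

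OASL, the member without 2-5A activity, had the opposite sign but did not pass. It had 7.79, 4.37 and 3.81 CPM in control, from 129, 65 and 58 counts, and 21.8, 7.32 and 6.17 CPM in siADAR1, from 387, 115 and 97 counts. In both groups replicate 1 was the highest, at 1.90 times the mean of the other control libraries and 3.24 times the mean of the other siADAR1 libraries. The groups overlapped, because control replicate 1 lay above siADAR1 replicates 2 and 3. The log2 fold change was 1.14 ± 0.58 (SE), and it did not pass (edgeR adjusted p = 0.149). With both libraries numbered 1 left out it was 0.72 and passed, with an edgeR adjusted p of 0.0126. Without siADAR1 replicate 1 alone it was 0.34 (adjusted p = 0.38), and without control replicate 1 alone it was 1.52 (adjusted p = 0.132). Over all 17 other settings of the analysis the log2 fold change was above 0, from 0.34 to 1.52. The adjusted p ran from 7.61e-05, in a fit with the replicate number as a block, where OASL also passed, to 0.38.

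**Figure D2:**
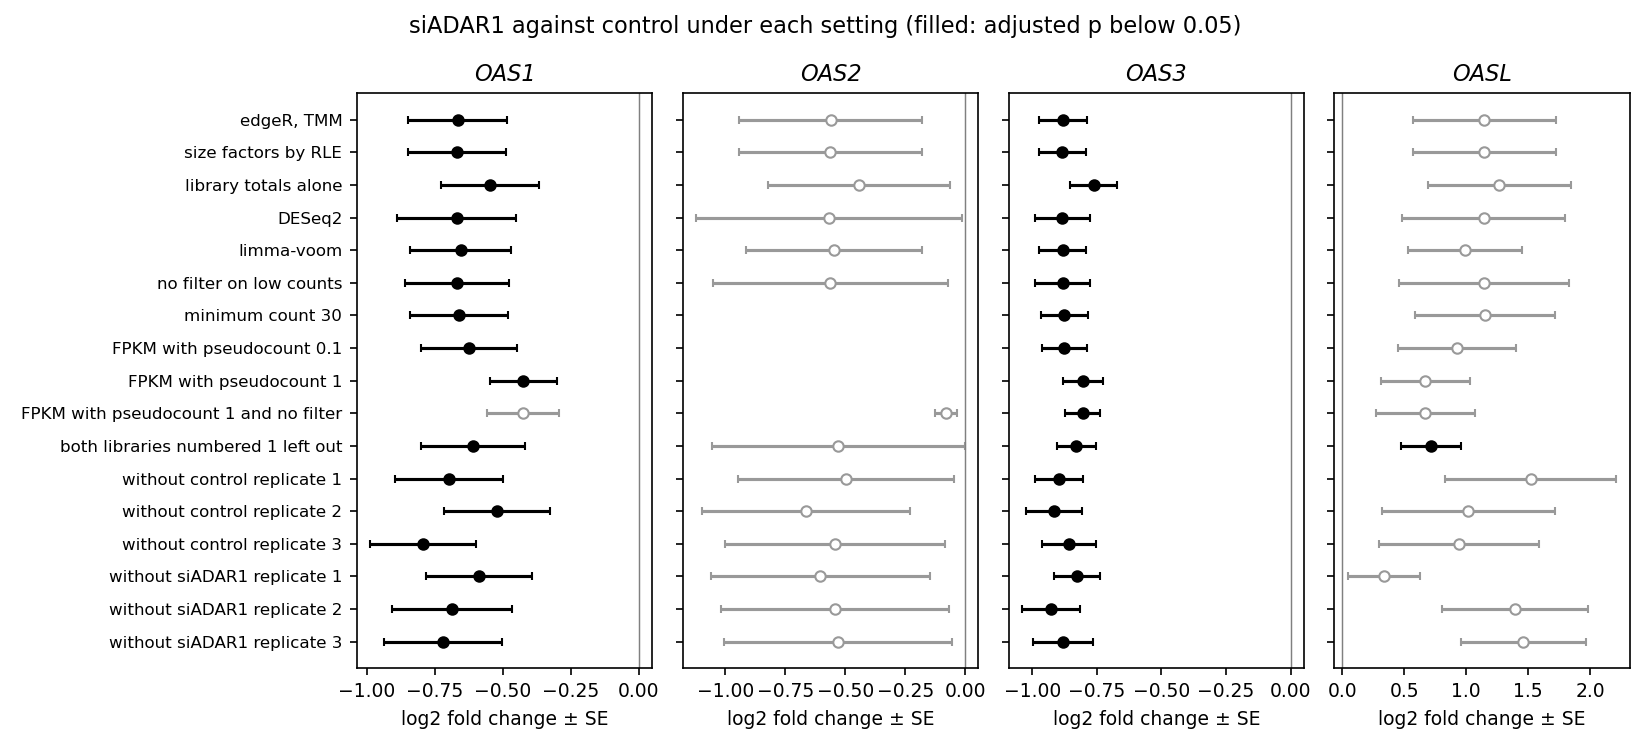
Log2 fold change ± SE of each OAS gene, siADAR1 against control, in the edgeR test and under the other scalings, tests, filters and left-out libraries; filled points have an adjusted p below 0.05, and OAS2 has no value where a filter removed it. OAS3 passed in each setting drawn, OAS1 in each but the unfiltered FPKM fit, and OASL only with both libraries numbered 1 left out; the fit with a replicate block, in which OASL also passed, is not drawn.

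Levels of different genes can be compared only per length, and the deposited FPKM (fragments scaled by gene length and library size) was used for this. Its length is the union of exon bases over all annotated transcripts: 4947 for OAS1, 6264 for OAS2, 8251 for OAS3 and 3517 for OASL. A gene present as a shorter transcript is set too low on this scale, so order and folds between members depend on these lengths. On this scale OAS3 was the highest member in both groups. In control it stood at 13.7 ± 0.63 FPKM (SD, n = 3), above 77.2% of tested genes on that scale and 6 times the level of OAS1. OAS1 followed at 2.29 ± 0.42 and OASL at 1.50 ± 0.60 FPKM, and their library ranges overlapped (1.91 to 2.74 and 1.07 to 2.19), so these neighbours were not ordered. OAS2 was lowest at 0.199 ± 0.026 FPKM. In siADAR1 the order was OAS3 at 7.44 ± 0.52, OASL at 3.31 ± 2.45, OAS1 at 1.44 ± 0.14 and OAS2 at 0.134 ± 0.007 FPKM, and no neighbours overlapped. OASL in siADAR1 replicate 1, at 6.13 FPKM, came close to OAS3 in the same library, at 6.89.

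The share of each member in the family's RNA was taken from the same values, with no test, and depends on the same gene lengths. The 4 genes together came to 18.3, 17.3 and 17.6 FPKM in control and 14.5, 11.6 and 10.9 in siADAR1, so every siADAR1 library held less. OASL made up 12%, 7.14% and 6.10% of that sum in control and 42.4%, 17.8% and 15.8% in siADAR1. OAS3 made up 74.7%, 76.0% and 81.9% in control and 47.7%, 68.4% and 68.8% in siADAR1.

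**Figure D3:**
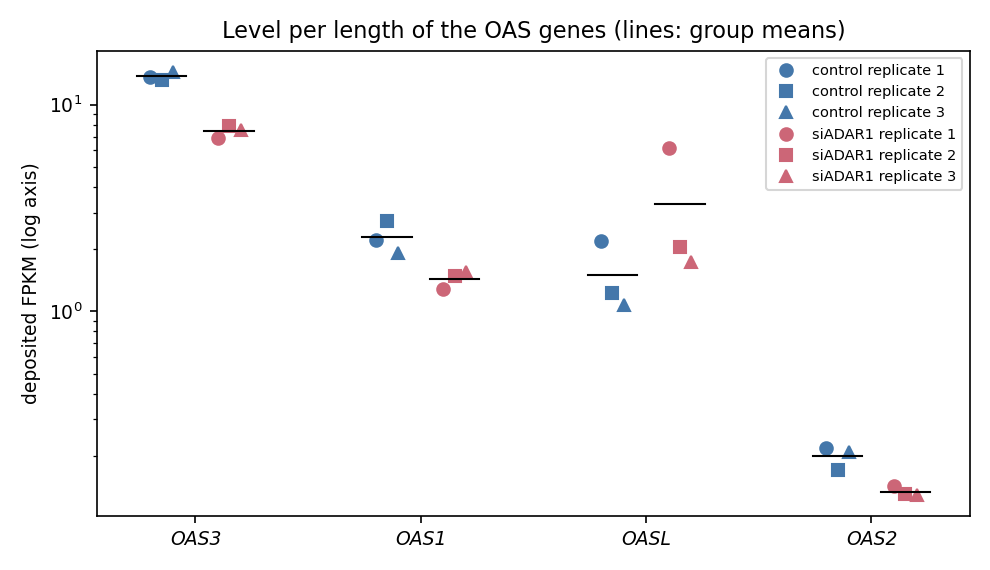
Deposited FPKM of each OAS gene on a log axis, by library (points) with group means (lines). OAS3 was the highest and OAS2 the lowest member in every library, and OASL lay above OAS1 in each siADAR1 library and below it in each control library.

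Whether members moved unequally was measured as the log2 ratio of their CPM within each library, which does not depend on how libraries are scaled beyond the pseudocount of 0.1. The ratio of OASL to OAS3 was -3.85, -4.61 and -4.94 in control and -1.39, -3.16 and -3.33 in siADAR1. All siADAR1 libraries lay above all controls, and the mean difference was 1.84 ± 0.70 (SE), a 3.58-fold shift. The ratio of OASL to OAS1 shifted by 1.61 ± 0.73 and that to OAS2 by 1.47 ± 0.59, again with no overlap between groups. The ratio of OAS3 to OAS2 differed by -0.37 ± 0.12, with no overlap. That SE is the spread between libraries and lies below the edgeR SE of OAS2 alone, 0.38, from 13 to 23 counts per library. It understates the counting error, so this difference cannot be told from none. For OAS3 against OAS1 (-0.23 ± 0.19) and OAS1 against OAS2 (-0.14 ± 0.27) the groups overlapped. In a two-sided exact permutation test over the 6 libraries the 4 separated ratios had p = 0.1, the smallest that 3 against 3 can give, and adjusted p = 0.15 over the 6 ratios compared, so none could pass. The other ratios had p = 0.4 and 0.8 in the exact test (adjusted 0.48 and 0.8). With both libraries numbered 1 left out, the shifts of OASL against OAS3, OAS1 and OAS2 were 1.53, 1.29 and 1.18.

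**Figure D4:**
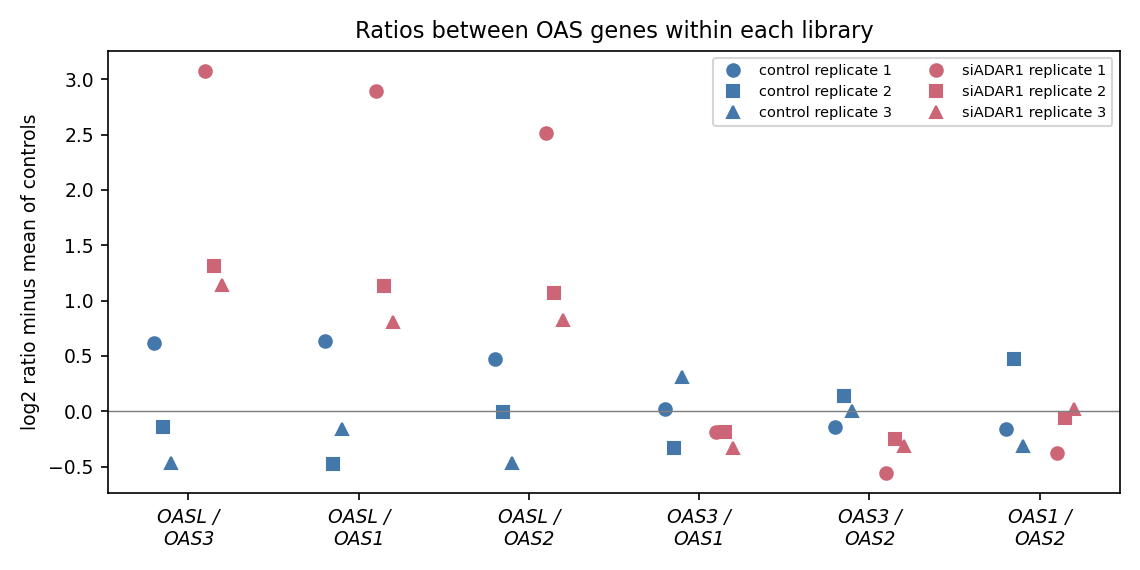
Log2 ratio between pairs of OAS genes in each library, minus the mean of the 3 controls. The 3 ratios that hold OASL are higher in all siADAR1 libraries than in any control, and most in replicate 1. Of the ratios among OAS1, OAS2 and OAS3 only that of OAS3 to OAS2 separates the groups, by -0.37. OAS2 had 13 to 23 counts per library, so this separation cannot be told from counting error.

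Genes beside the family were followed to see whether the chromosome region moved as a whole. On the OAS1 side the nearest coding genes were RPH3A, with 2 counts in all, and PTPN11, which encodes the phosphatase SHP2. PTPN11 had 290.7 ± 32.4 CPM in control and 308.9 ± 9.49 in siADAR1 (SD, n = 3), with a log2 fold change of 0.09 ± 0.09 (edgeR adjusted p = 0.441). On the OAS2 side DTX1 had 2 counts in all, and RASAL1, a regulator of RAS, had 2, 3 and 3 counts in control and 8, 6 and 11 in siADAR1, too few to be tested. Beside OASL, P2RX7 had no counts in any library, where a count of 0 allows up to 3. The ATP-gated channel gene P2RX4 had a log2 fold change of 0.27 ± 0.15 (adjusted p = 0.148). Of the genes flanking OAS1, OAS3 and OAS2 only PTPN11 could be tested. It ends at position 112509913, and RPH3A lies between it and OAS1, which starts at 112906777. A single tested neighbour at that distance cannot show whether the region moved as a whole.

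Partners of 2-5A moved in both directions. ABCE1, an ATPase of ribosome recycling that is also known to restrain the ribonuclease set off by 2-5A, fell from 229.9 ± 8.78 to 143.5 ± 9.02 CPM (SD, n = 3). Its log2 fold change was -0.68 ± 0.08 (edgeR adjusted p = 2.43e-05), and the groups did not overlap. PDE12, a phosphodiesterase that degrades 2-5A, rose from 46.4 ± 3.93 to 62.1 ± 4.67 CPM, by 0.42 ± 0.10 on the log2 scale (edgeR adjusted p = 0.00445). AKAP7, which holds a domain that can cut 2-5A, had a log2 fold change of -0.60 ± 0.21 and an edgeR adjusted p of 0.031. That call was lost on leaving out control replicate 2 (-0.56, adjusted p = 0.0864) or 3 (-0.48, 0.126), or siADAR1 replicate 2 (-0.48, 0.126) or 3 (-0.64, 0.0591), and with library totals alone (-0.49, 0.0774). It was also lost in limma on FPKM with a pseudocount of 0.1 (-0.56, adjusted p = 0.0649) or 1 (-0.36, 0.0679), and unfiltered (-0.36, 0.18).

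A list of genes that sense or bind double-stranded RNA, with adaptors and regulators of sensing, had members that rose and members that fell. It also held the DNA sensor gene CGAS, its adaptor gene TMEM173 and the ubiquitin ligase gene RNF135, which all fell. The counts are thus not of sensors of double-stranded RNA alone. Of 19 tested, 3 rose and 9 fell, ADAR among them, with a median log2 fold change of -0.15. Leaving out ADAR, whose fall the knockdown set, 3 of 18 rose and 8 fell, with a median of -0.13. Over all tested genes 26.0% rose and 25.0% fell. IFIH1, which encodes the sensor MDA5, rose from 9.02 ± 1.58 to 23.0 ± 3.90 CPM, and DDX58, which encodes RIG-I, the sensor that OASL is known to assist, rose from 10.5 ± 3.37 to 20.3 ± 1.53 CPM (SD, n = 3). Their log2 fold changes were 1.35 ± 0.17 and 0.96 ± 0.20, with edgeR adjusted p of 3.16e-05 and 0.00137. TICAM1, the adaptor of the endosomal sensor TLR3, rose by 0.58 ± 0.12. The genes lower in siADAR1 with the smallest p besides ADAR were PRKRA, an activator of the kinase PKR, at -1.11 ± 0.11, and STAU1, a protein that binds double-stranded RNA, at -0.77 ± 0.08. EIF2AK2, the gene of PKR itself, named after its values were seen, fell like OAS1 and OAS3, at -0.46 ± 0.09 (edgeR adjusted p = 6.85e-04). With library totals alone 5 genes of this list rose.

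Genes that carry the interferon signal lay on both sides of 0, with a called share near that of all genes. Of 25 tested receptors, kinases, STAT and IRF factors and their brakes, 10 rose and 3 fell, or 52% in either direction against 51.0% of all tested genes. By direction these were 40% and 12%, against 26.0% and 25.0%, a difference that was not tested, and the median log2 fold change was -0.01. IRF1, a factor that binds the promoters of many interferon-stimulated genes, rose from 46.9 ± 1.92 to 158.7 ± 21.4 CPM (SD, n = 3), and the kinase gene IKBKE from 27.2 ± 0.48 to 89.8 ± 9.56 CPM. The log2 fold changes of IRF2 (-0.48 ± 0.14, adjusted p = 0.0144) and of the phosphatase gene PTPN2 (-0.28 ± 0.10, adjusted p = 0.0325) passed in the full set. IRF2 did not pass without control replicate 2 (-0.44, adjusted p = 0.0544), with library totals alone (-0.36, 0.051) or on unfiltered FPKM (-0.43, limma adjusted p = 0.0654). PTPN2 passed neither with library totals alone (-0.17, 0.192) nor after leaving out control replicate 2 (-0.21, 0.154) or 3 (-0.31, 0.0555), or siADAR1 replicate 1 (-0.29, 0.0532) or 2 (-0.23, 0.138). Nor did it pass in limma on FPKM with a pseudocount of 0.1 (-0.28, adjusted p = 0.0533) or 1 (-0.25, 0.0531), or unfiltered (-0.25, 0.099). Between 2 and 5 signalling genes fell when a library was left out, with 5 when that was control replicate 1, and 1 fell with library totals alone.

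Interferon-stimulated genes outside the family lay on both sides of 0. Of 48 tested, 13 rose and 11 fell, near the general share, with a median log2 fold change of 0.03. EPSTI1, a gene induced by interferon in epithelium, rose by 1.63 ± 0.12 on the log2 scale, IFI16, a DNA sensor, by 1.17 ± 0.14, and the helicase gene DDX60L by 0.77 ± 0.11. ZC3HAV1, which encodes the RNA-binding protein ZAP, fell by 0.62 ± 0.09, PML, the scaffold of nuclear bodies, by 0.61 ± 0.10 and LGALS3BP, a secreted glycoprotein, by 0.60 ± 0.12. The genes that rose were 8 on leaving out control replicate 2, and those that fell were 7 on leaving out siADAR1 replicate 2 or with library totals alone.

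RSAD2 and IFIT2, antiviral genes that can be induced without interferon, were looked at after their values were seen because they too were highest in siADAR1 replicate 1. RSAD2 had 0.665, 0.135 and 0.985 CPM in control and 7.16, 1.78 and 1.08 in siADAR1. IFIT2 had 8.70, 10.0 and 8.87 CPM in control and 28.1, 13.4 and 15.3 in siADAR1. Unlike OASL, neither was raised in control replicate 1 above both other controls. Being highest in siADAR1 replicate 1 was not particular to genes that rose. ISG15, IFIT3 and HERC5, also looked at after their values were seen, were highest there too. ISG15 passed (0.48, edgeR adjusted p = 0.0369), while IFIT3 (-0.01, 0.967) and HERC5 (0.19, 0.715) did not. RSAD2 had a log2 fold change of 2.48 ± 0.85 (edgeR adjusted p = 0.0403). It did not pass without control replicate 1 (2.56, adjusted p = 0.12), 2 (2.03, 0.106) or 3 (3.01, 0.0512), or without siADAR1 replicate 1 (1.25, 0.128). Nor did it pass with both libraries numbered 1 left out (1.33, edgeR adjusted p = 0.0685) or on unfiltered FPKM (0.52, limma adjusted p = 0.271). IFIT2 rose by 1.05 ± 0.25 on the log2 scale (edgeR adjusted p = 0.00504), and by 0.64 without siADAR1 replicate 1. The 21 genes of type I and type III interferons were all too low to be tested. Their counts summed to 38 in control and 49 in siADAR1, and most of them were counts of IFNE, with 20, 4 and 10 in control and 14, 8 and 8 in siADAR1. IFNB1, the interferon beta gene, had 0, 0 and 0 counts in control and 4, 1 and 3 in siADAR1. It was thus seen in each siADAR1 library and in no control, at counts too low for a test, and a count of 0 allows up to 3.

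**Figure D5:**
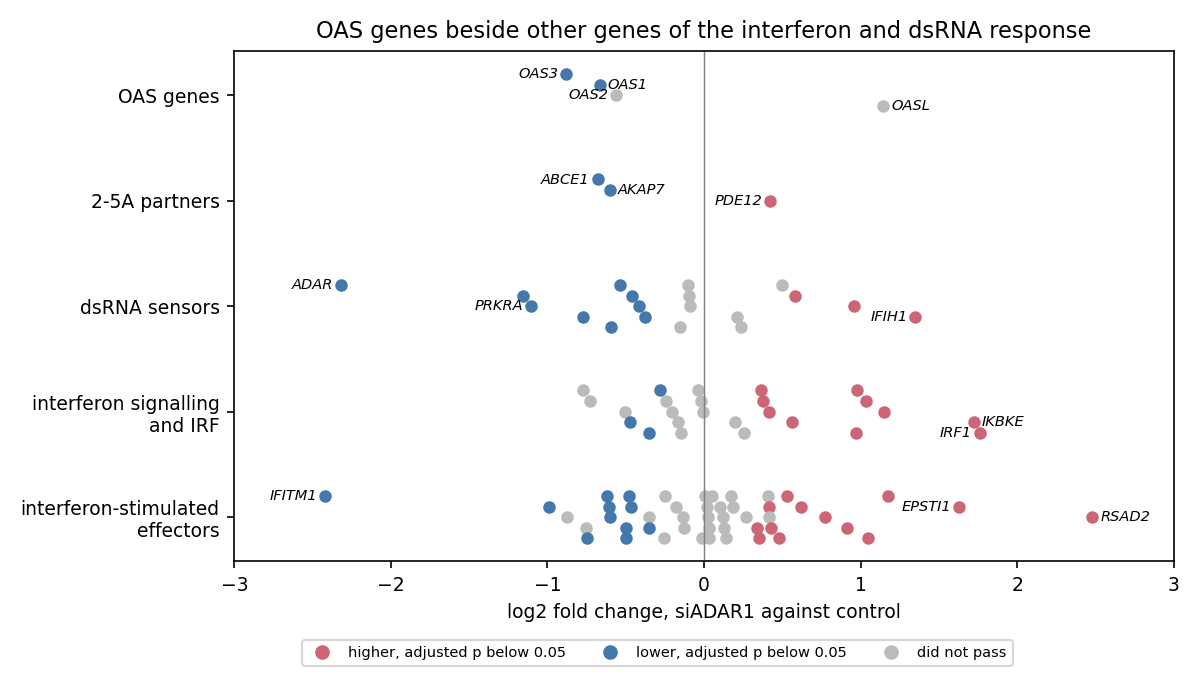
Log2 fold change, siADAR1 against control, of the 4 OAS genes, of 3 partners of 2-5A and of the tested genes of 3 fixed lists; each point is a gene, coloured by direction where its adjusted p is below 0.05, and vertical offsets only separate points. OAS1 and OAS3 lie among the lower genes, and IRF1 and IKBKE at 1.76 and 1.73 lie above OASL at 1.14.

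The genes whose profile over the 6 libraries was most like each member were found by the root mean square distance between centred log2 CPM profiles among 11601 coding genes. OAS3 lay 0.026 from TMEM19, a membrane protein gene, 0.031 from RECQL4, a DNA helicase gene, and 0.039 from MEGF9. RECQL4 went from 181.0 ± 5.37 to 97.2 ± 8.66 CPM (SD, n = 3), beside 114.4 and 62.2 CPM for OAS3. The nearest profiles to OAS1 were JTB at 0.069, VKORC1, the vitamin K reductase gene, at 0.080 and PUDP at 0.081. Those nearest to OAS2 were QSOX2, NAF1 and ABHD17C, at 0.038 to 0.055. OAS2 itself lay below the mean of 2 CPM asked of the candidates, so its profile may be largely counting error. OASL had no profile as close. The distance grows with the swing of a profile, and OASL ran from 3.81 to 21.8 CPM, so its distances do not show an unusual pattern. Nearest to OASL were SLC26A11, an anion transporter gene, at 0.298, OSGIN1, a gene of the oxidative stress response, at 0.299 and HHLA3 at 0.309. OSGIN1 was at 55.3, 28.7 and 25.6 CPM in control and 104.5, 62.4 and 56.8 in siADAR1, with replicate 1 highest in both groups as for OASL. None of these 12 genes belongs to the lists of interferon or double-stranded RNA genes above. Those lists held 19, 25 and 48 tested genes, few beside the 11601 searched, so that absence tells little. With 6 libraries in 2 groups a small distance is a description.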

How the data were processed

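The deposited gene counts are raw whole numbers, which the values bear out. The deposited FPKM table, per the file headers, is given per library. Its values were the count over gene length with a library factor set by the authors (0.966 to 1.06 of the count total). Per the submitters' processing notes CASAVA, fastp and HISAT2 2.0.5 were used; neither the counting tool nor the build or annotation is given in the sources used here. Gene coordinates of all 58735 genes equal GENCODE release 29 on GRCh38. All 6 libraries carry the same batch label.

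Counts were tested in R 4.3.3 with edgeR 4.0.16: filterByExpr (minimum count 10), TMM scaling (factors 0.957 to 1.05), the robust quasi-likelihood test of siADAR1 against control, two-sided, Benjamini-Hochberg adjustment over 15294 genes, threshold 0.05. The SE of a log2 fold change is its size over the square root of F. The test was also run on simulated counts in which few genes changed. Since 51.0% of genes passed here, that run does not show how the test behaves on these data. Alternatives used limma 3.58.1 and DESeq2 1.42.0. Precision at low levels is set by depth: 1 count is 0.0564 to 0.0673 CPM. Limits set by counts of 0 cover counting error only.

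The members, lists and tests were chosen with earlier results of these data known. The text names the 4 genes, ADAR, the 2-5A partners, the 3 higher and 3 lower called genes with the smallest p per list, the 2 nearest coding genes per side, overlapping genes and the 3 closest profiles per member; some genes that this rule names are not reported here.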

Additional observations from a re-analysis of the deposited data

How the results depend on the processing

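OAS3 kept its direction and its call in all 17 other settings, with log2 fold changes of -0.93 to -0.76 and adjusted p up to 0.00159. OAS1 kept its direction in all 17, from -0.79 to -0.425, and lost the call on FPKM with a pseudocount of 1 and no filter (-0.425, adjusted p = 0.0807), where 1 OAS gene was lower, 1 signalling gene was lower and 7 interferon-stimulated effector genes were higher. The cause was not tested. OAS2 stayed below 0 without passing in the 14 settings that kept it, from -0.66 to -0.08. OASL passed, as the 1 higher OAS gene, with both libraries numbered 1 left out (0.72, adjusted p = 0.0126) and with the replicate number as a block (1.03, adjusted p = 7.61e-05). The numbers are not shown to pair the samples. Same-numbered libraries had correlations of their deviations from group means of 0.247, 0.0834 and 0.102. Control replicate 2 correlated best with siADAR1 replicate 3 (0.0894). Between groups, the libraries numbered 1 correlated below 0 with each library of another number, from -0.164 to -0.129. Such deviations sum to 0 within a group, so part of this follows from the 0.247. Whether the libraries numbered 1 were a pair was not tested. Under the block 4396 genes were higher and 4186 lower, against 3973 and 3831. With library totals alone 5 genes of the sensor list were higher, 1 signalling gene lower and 7 effector genes lower. Leaving out each library in turn gave 2 to 5 signalling genes lower, 8 to 12 effector genes higher and 7 to 12 lower. PTPN11 turned to -0.0145 without control replicate 1; its values over the left-out libraries ran up to 0.1294. The ratio of OAS1 to OAS2, which did not pass, was 0.10 without control replicate 2. About 13 to 23 counts per library limit what can be said of OAS2.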
